A study of Mus musculus with 24 samples.

Results

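MicroRNA levels in the intima of the partially ligated left carotid artery, 48 h after surgery, were set against those in the right carotid artery of operated mice. The comparison holds 12 of the 24 arrays of the series, 6 of the left and 6 of the right carotid, and covers all 655 probes of the table for that time. The left carotid group had 3 of the 4 caudal branches of the artery tied with the superior thyroid artery spared, after which flow is low and oscillating. The right carotid group was not ligated and served as the control. Both groups came from male C57Bl6 mice aged 6 to 8 weeks, and in both the intima was flushed out with Qiazol. Per the labels, ultrasound was used to check the flow. The groups hold no artery of a sham-operated or unoperated mouse, so flow, surgery and side of the body cannot be told apart. The labels do not say whether a numbered sample is a single animal, a pool or an artery of the same animal as its counterpart. The p-values therefore measure only how far these samples differ among themselves, which may be technical.

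A mature miRNA guides the silencing complex to messenger RNAs that pair with its seed, the bases 2 to 8 from the 5′ end. It is cut from a hairpin, and either arm of the hairpin can be kept; the arm kept less often is written with a star. Endothelial cells line the intima and sense the force of the blood on their surface. Steady laminar flow keeps them quiescent, whereas low and reversing flow favours inflammation and atherosclerosis, and several miRNAs are known to follow the kind of flow.

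The 12 miRNAs that passed the test and the opposite arm of miR-330* are given first, since their families and their similarity to other probes bear on the values below. The seed is in capitals. Sequences with U are from RefSeq (GRCm38.p6), and those with T are the target sequences in the deposited table, for miRNAs not matched in RefSeq.
solexa-284-1594: gGCTCGTTggtctaggggtatgattc
miR-574-3p: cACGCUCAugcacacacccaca
miR-423-3p: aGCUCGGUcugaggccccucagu
miR-99b: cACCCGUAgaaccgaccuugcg
miR-146b: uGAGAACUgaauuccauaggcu
miR-330*: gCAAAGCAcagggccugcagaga
miR-330: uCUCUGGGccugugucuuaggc
miR-669e: tGTCTTGTgtgtgcatgttcat
miR-615-5p: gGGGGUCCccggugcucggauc
let-7d: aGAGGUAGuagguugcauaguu
miR-26a: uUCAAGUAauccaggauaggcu
miR-23b: aTCACATTgccagggattacc
miR-327: aCTTGAGGggcatgaggat

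No seed was shared among the 12. In GRCm38.p6, miR-574-3p lies at chr5:64970364-64970385 (plus strand), within Tlr6 and Fam114a1, and miR-423-3p at chr11:77078086-77078108 (minus strand), within Nsrp1. miR-99b lies at chr17:17830194-17830215 (plus strand) within Spaca6, and miR-146b at chr19:46342790-46342811 (plus strand) within Gm36493. miR-330* lies at chr7:19181525-19181547 and miR-330 at chr7:19181486-19181507, both on the plus strand within Eml2. miR-615-5p lies at chr15:103014926-103014947 (plus strand) within the homeobox gene Hoxc5. let-7d lies at chr13:48536078-48536099 (minus strand) outside any other annotated gene. miR-26a has 2 copies, at chr9:119031811-119031832 within Ctdspl and at chr10:126995543-126995564 within Ctdsp2, both on the plus strand, and the probe cannot tell them apart. The table places miR-23b on chromosome 13, miR-669e on chromosome 2 and miR-327 on chromosome 14, and gives no chromosome for solexa-284-1594.

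The arrays gave an average bead signal and a detection p-value per probe. A probe was called detected on an array where that p was under 0.05. Left arrays detected 378 ± 15.3 probes and right arrays 371 ± 33.3 (SD, n = 6 each; exact permutation test, two-sided, p = 0.671; this design allows 0.0022 at the lowest). Without right array 1 the difference of the means was -0.53 probes, and without right array 4 it was -0.73, against 6.5 with all arrays. Detection was uneven even at bright probes. Of 247 probes detected on at least 6 arrays with a median signal of at least 1000 where detected, 161 were detected on all 12 arrays. Each left array missed 12 to 30 of these bright probes, and each right array missed 10 to 46. Right arrays 1, 4 and 2 missed the most, 46, 42 and 37, and also detected the fewest probes, 336, 335 and 356. By mean rank correlation, right arrays 3 and 5 lay nearer to the left arrays (0.806 and 0.811) than to the other right arrays (0.800 and 0.789). All were kept under their labels, and counts without each of these sets are given below. The number of arrays, not a read depth, limits the precision here.

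At 48 h, 8 miRNAs rose and 4 fell in the left carotid among 407 tested (limma, Benjamini-Hochberg adjusted p under 0.05), which is 2.95% of the probes tested, 1.97% higher and 0.983% lower. The rises were of 2 kinds. miR-146b, miR-330* and miR-669e had log2 changes between 4.63 and 4.88 and were detected on few right arrays. solexa-284-1594, miR-423-3p, miR-99b and miR-574-3p were bright on all 12 arrays and rose by 0.30 to 0.92 on the log2 scale. miR-615-5p lay between these. The falls were in let-7d, miR-26a and miR-23b, all bright on every array, and in the dim miR-327. Fewer cells of a type and less RNA per cell cannot be told apart in such samples.

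An unadjusted p under 0.05 was found for 72 probes (17.7%). Left and right arrays did not overlap in 19 (4.67%), with the left above the right in 13 (3.19%) and below it in 6 (1.47%). Negative and positive differences were equally common, 204 (50.1%) below and 203 (49.9%) above 0, and the median difference was -0.000835. The median size of the difference was 0.538. Scaling each array to its 75th percentile instead of quantile normalization moved the median of all probes to 0.32 and gave 9 calls, 8 higher and 1 lower, with 7 of the 12 among them. The count also depended on single arrays. It was 1 without left array 5, 6 without left array 4, and 4 without either right array 2 or right array 6. It was 6 without right arrays 1, 2 and 4, with 4 of the 12 among them, and 15 without right arrays 3 and 5, with 8 of the 12 among them. With the replicate number as a block, 0 probes passed (66 at an unadjusted p under 0.05).

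**Figure D1:**
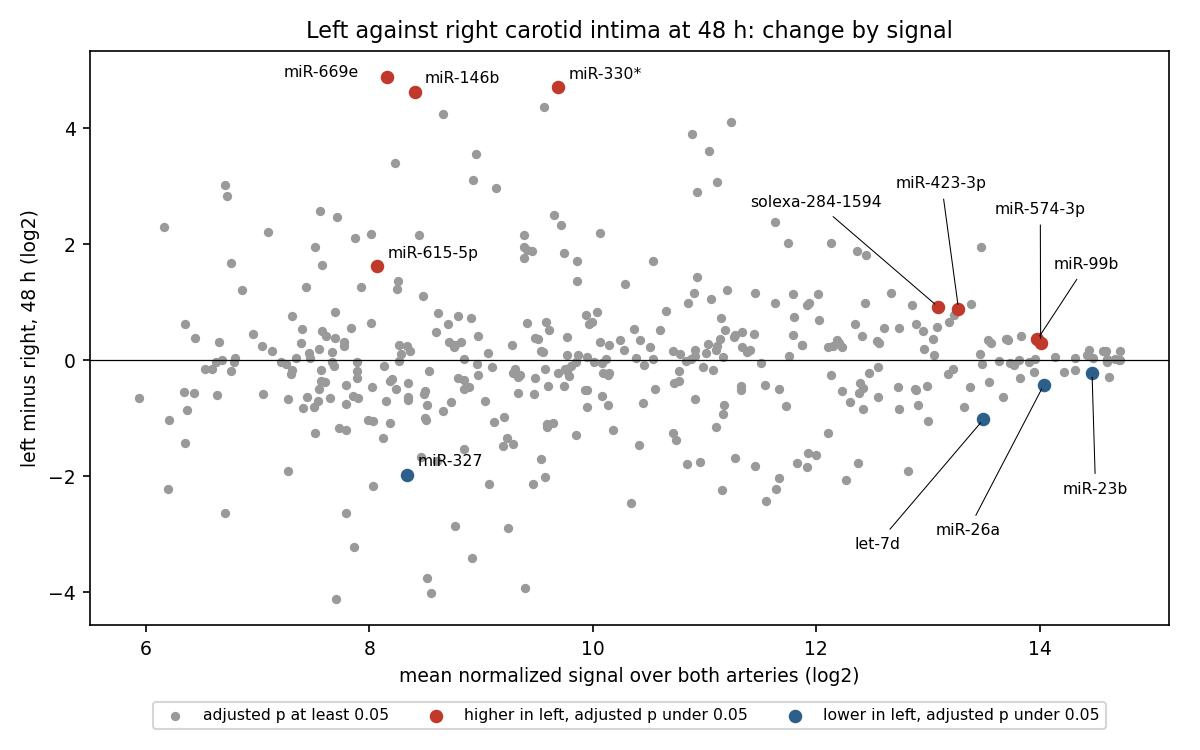
Left minus right difference of each of the 407 tested probes at 48 h (vertical axis, log2) against its mean normalized signal over both arteries (horizontal axis, log2). The 8 higher and 4 lower miRNAs past the threshold are coloured and named. They fall into a bright group on the right of the plot and a group with a mean between 8 and 10 on the log2 scale. For miR-146b, miR-330* and miR-669e that mean lies between a left mean above 10 and a right mean below 8.

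The calls sat in 2 ranges of mean signal over both arteries. Among 52 probes with a mean log2 signal over 13, 4 rose and 3 fell, and the median SD within an artery was 0.18 on the left and 0.24 on the right. Among 129 probes between 8 and 10, 4 rose and 1 fell, with median SDs of 1.11 on the left and 1.48 on the right. Of these rises, miR-330*, miR-146b and miR-669e had left means of 12.04, 10.72 and 10.60 and right means of 7.33, 6.09 and 5.72. No probe was called among the 101 probes between 10 and 12, where the median SDs were 0.97 on the left and 1.04 on the right, nor among the 82 probes below 8 and the 43 between 12 and 13. The median size of the difference was 0.21 above 13, against 0.69 between 8 and 10. Differences under 1 on the log2 scale were called only above a mean of 13.

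The probe solexa-284-1594 targets a small RNA known from sequencing, for which the table gives no gene. Its normalized log2 signal was 13.47, 13.55 and 13.65 (lowest, median and highest) on the left, against 12.33, 12.62 and 13.18 on the right. Every left array lay above every right array. The log2 change was 0.92 ± 0.14 SE (1.89-fold, limma adjusted p = 0.01205), the smallest p of the comparison. miR-423-3p had 13.55, 13.66 and 13.98 on the left, against 12.44, 12.77 and 13.42 on the right. Its groups did not overlap either, and it rose by 0.89 ± 0.16 SE (1.85-fold, adjusted p = 0.01968).

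The other bright miRNAs that rose did so by less. miR-574-3p had 14.12, 14.16 and 14.20 on the left, against 13.76, 13.86 and 13.99 on the right. All left arrays lay above all right arrays, and the left SD was 0.04 (log2 change 0.30 ± 0.05 SE, 1.23-fold, adjusted p = 0.01617). miR-99b belongs to the miR-99/100 family, which is known to repress mTOR, and shares a short cluster with let-7e and miR-125a. It had 13.98, 14.14 and 14.43 on the left, against 13.55, 13.82 and 13.94 on the right, without overlap (log2 change 0.36 ± 0.09 SE, 1.28-fold, adjusted p = 0.04318). Before normalization the signals of miR-99b, miR-423-3p, miR-574-3p and solexa-284-1594 overlapped between the arteries. For solexa-284-1594 they ran from 9590 to 14790 on the left and from 4141 to 10875 on the right. For miR-99b they ran from 15665 to 25174 on the left and from 10499 to 18050 on the right.

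miR-146b is induced through NF-kB and is known to dampen the same pathway by repressing Traf6 and Irak1. Its signal before normalization was 138, 3571, 4785, 6189, 2846 and 1454 on left arrays 1 to 6, against 67, 77, 87, 88, 227 and 185 on right arrays 1 to 6. It was detected on 5 of 6 left and 1 of 6 right arrays, and left array 1 lay at the right arrays' level. The log2 change was 4.63 ± 0.97 SE (adjusted p = 0.02756). The summed signal of the list of 5 leukocyte miRNAs on the array ran from 25458 to 33089 on the left and from 1660 to 25269 on the right. Of that sum, miR-223 alone ran from 20226 to 28946 on the left and from 1127 to 12576 on the right. None of the 3 tested passed the threshold. Among that list, miR-155 and miR-142-5p were each detected on 0 left and 1 right arrays. The part of leukocytes in the value of miR-146b was not tested.

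miR-330*, the arm named miR-330-3p in RefSeq, had signals of 2514, 4509 and 8049 on the left (lowest, median and highest), against 54, 126.5 and 2522 on the right. It was detected on all 6 left arrays and on right arrays 3 and 6, and after normalization no right array reached a left one (log2 change 4.70 ± 1.01 SE, adjusted p = 0.02767). miR-669e belongs to a large repetitive miRNA cluster in an intron of Sfmbt2. Its signals were 238, 3225 and 6846 on the left, against 27, 30 and 1525 on the right. It was detected on 6 left arrays and on right array 5, which lay above left arrays 1 and 2, so the groups overlapped (log2 change 4.88 ± 1.11 SE, adjusted p = 0.03146).

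miR-615-5p had signals of 401, 495.5 and 869 on the left, against 102, 134.5 and 365 on the right. No right array reached the lowest left one, and it was detected on 6 left and 5 right arrays. It rose by 1.62 ± 0.35 SE on the log2 scale (3.08-fold, adjusted p = 0.02767).

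let-7d belongs to the let-7 family, known for restraining growth programmes through targets such as Hmga2 and Lin28. It had normalized log2 signals of 12.46, 12.98 and 13.62 on the left, against 13.47, 14.03 and 14.38 on the right. Every left array lay below the right mean, and a single left array lay above the lowest right one. let-7d fell by 1.02 ± 0.20 SE (0.493 of the right level, adjusted p = 0.02273), the largest change among the called miRNAs that were bright on all arrays. miR-26a, which is known to repress the histone methyltransferase gene Ezh2, had 13.69, 13.78 and 14.06 on the left, against 14.09, 14.21 and 14.47 on the right. Its groups did not overlap, although its signals before normalization did, from 11231 to 17761 on the left and from 12909 to 22860 on the right (log2 change -0.43 ± 0.09 SE, 0.742 of the right level, adjusted p = 0.02396).

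miR-23b is known from human endothelial cells to rise under laminar flow. It had 14.20, 14.36 and 14.47 on the left, against 14.43, 14.60 and 14.66 on the right. The highest left array lay just above the lowest right array, and the fall was small (log2 change -0.22 ± 0.05 SE, 0.858 of the right level, adjusted p = 0.03146). Before normalization its signals ran from 20020 to 25227 on the left, within the range of 19793 to 25396 on the right. Under 75th percentile scaling its log2 change was -0.08 (limma adjusted p = 0.708). miR-327 was dim on every array, at 6.12, 7.35 and 8.40 on the left, against 8.59, 9.36 and 10.11 on the right. It fell without overlap by 1.98 ± 0.40 SE on the log2 scale (0.254 of the right level, adjusted p = 0.02522), although its signals before normalization overlapped, from 183 to 307 on the left and from 232 to 1022 on the right.

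**Figure D2:**
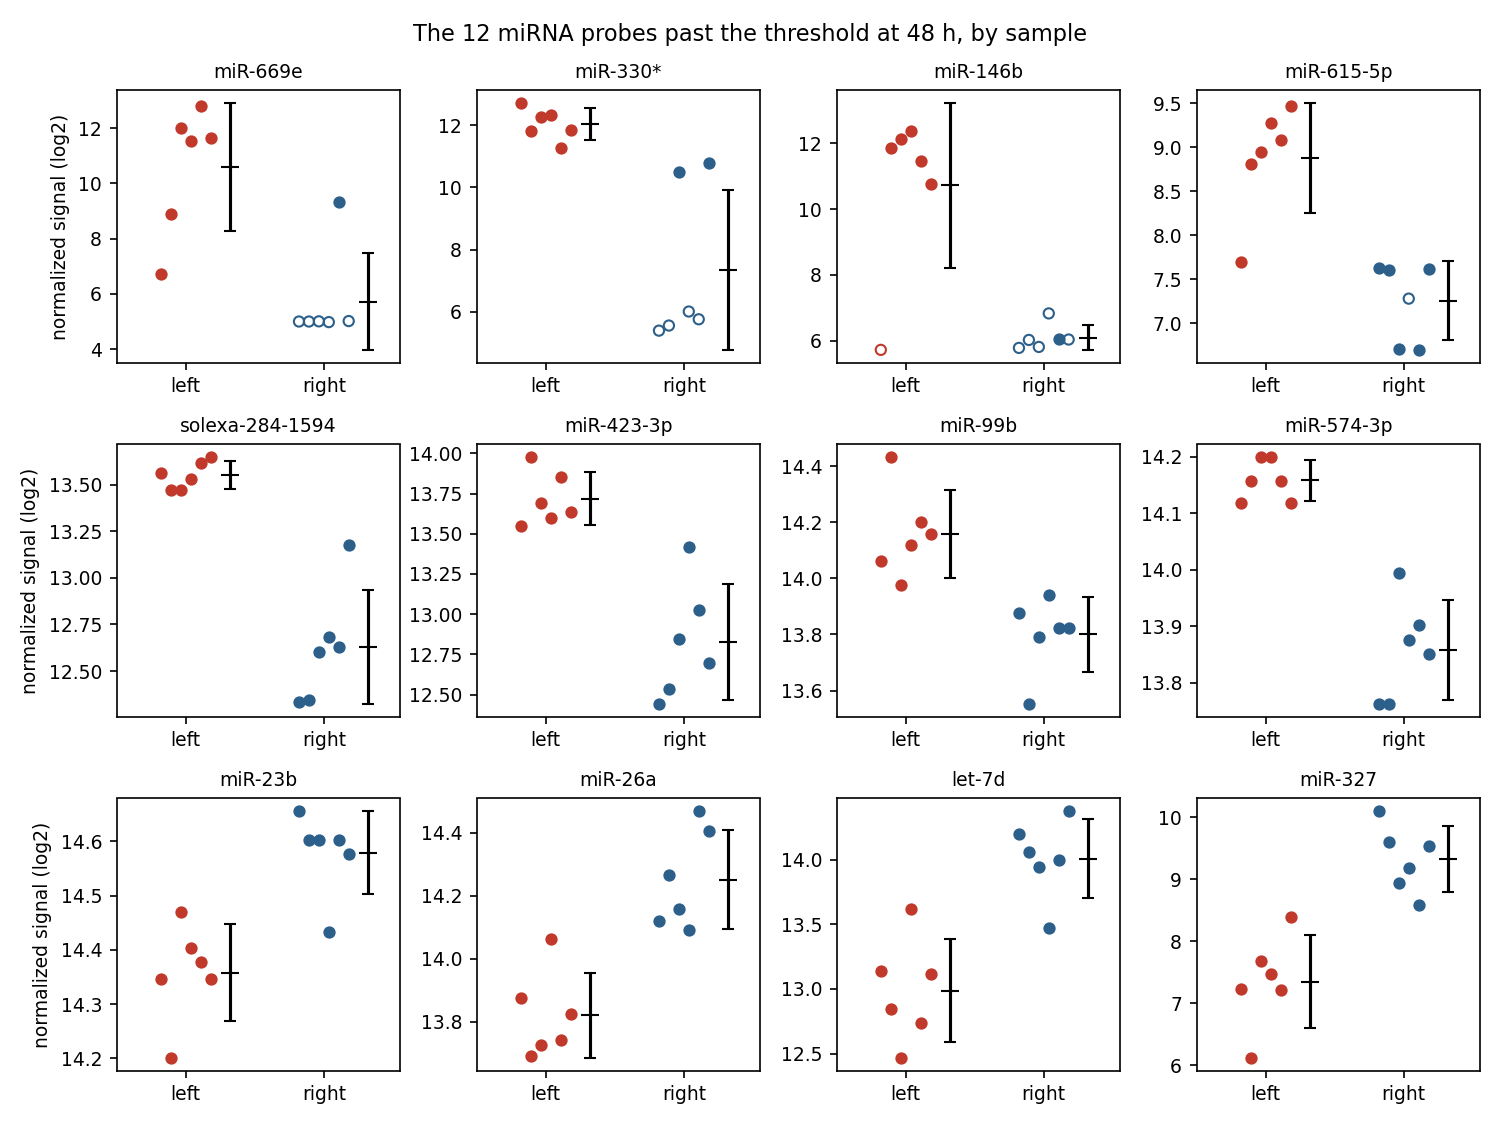
Normalized log2 signal of the 12 miRNAs past the threshold on each 48 h array, 6 left (red) and 6 right (blue) per panel, with the mean and SD beside the points; open points were not detected. miR-146b shows 1 left array at the right arrays' level, while all left arrays of solexa-284-1594, miR-574-3p and miR-423-3p lie above all right arrays.

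How firmly each call rests on the 12 arrays was examined by leaving out each array in turn. solexa-284-1594 passed in all 12 fits (adjusted p from 0.00059 to 0.0496). miR-574-3p and miR-423-3p missed the threshold only without left array 5, both at an adjusted p of 0.051. let-7d and miR-26a missed it without left array 5, right array 2 or right array 6, with adjusted p up to 0.0514. miR-327 missed it without these 3 or left array 4 (up to 0.0546). miR-330* missed it without left array 4, left array 5, right array 1 or right array 2 (up to 0.0713), and miR-146b without these 4 or right array 6 (up to 0.0599). Without left array 1, the left array that did not detect it, the log2 change of miR-146b was 5.63. miR-615-5p missed the threshold in 6 fits, without left arrays 4, 5 or 6 or right arrays 2, 3 or 6 (up to 0.0676). miR-669e and miR-23b missed it in 9 fits each and miR-99b in 10. miR-669e passed only without left arrays 1 or 2 or right array 5, miR-23b only without left arrays 2 or 3 or right array 4, and miR-99b only without left array 3 or right array 4. The highest adjusted p was 0.0762 for miR-669e, 0.0796 for miR-23b and 0.104 for miR-99b. The direction of all 12 was the same in every one of these fits. All 12 lost their call under the replicate block, with adjusted p from 0.0933 to 0.177. Under 75th percentile scaling, miR-574-3p (adjusted p = 0.0966), miR-26a (0.120), miR-327 (0.0601), miR-23b (0.708) and miR-99b (0.127) missed the threshold. Without the intensity trend in the limma fit, miR-574-3p (0.273), miR-26a (0.161), miR-23b (0.374), miR-669e (0.0547) and miR-99b (0.244) did.

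At 12 h after ligation the labels number 6 samples per artery and name no repeats. Arrays with a rank correlation above 0.98 were taken as repeats, which left 3 samples per artery. None of the miRNAs called at 48 h and tested at 12 h passed the threshold. The log2 change at 12 h was 0.71 ± 1.85 SE for solexa-284-1594, 0.06 ± 0.22 for miR-423-3p and 0.07 ± 0.27 for miR-574-3p. It was -0.02 ± 0.02 for let-7d, -0.05 ± 0.03 for miR-26a and -0.03 ± 0.02 for miR-23b, so that the standard errors of these 3 falls were several times smaller than their changes at 48 h. miR-669e was at 2.85 ± 1.31 SE and miR-146b at 1.18 ± 1.28, while miR-330* was not tested at 12 h. miR-615-5p differed in sign, at -0.68 ± 0.38 SE. The difference between the times was tested directly, and among the 12 it was largest against its error for miR-615-5p (2.30, adjusted p = 0.0899) and let-7d (-0.998, adjusted p = 0.176). Of 474 probes in that test, 1 passed (0.211%), and 49 had an unadjusted p under 0.05 (10.3%). It was miR-291b-5p, which was detected on 0 of 12 arrays at 48 h, so that its 48 h side is background and the size of the difference is not a measured value. At 12 h its log2 change was 5.09 ± 0.32 SE (adjusted p = 0.002078). The authors' processed values hold no value for it at 48 h, and 0 probes passed in the fit on them. Counting every 12 h array as a sample gave 17.

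None of the opposite arms measured beside a called miRNA passed the threshold. All 6 left arrays of miR-574-5p lay below all 6 right arrays, at 10.51, 12.29 and 12.46 on the left, against 12.74, 12.80 and 13.00 on the right. Its log2 change was -0.84 ± 0.31 SE (adjusted p = 0.158), opposite in sign to that of miR-574-3p, which is cut from the same hairpin. miR-330 was dim in both arteries, with a median signal of 148 on the left and 132 on the right. It was detected on 1 left and 5 right arrays, beside 6 left and 2 right for miR-330*. These counts for miR-330 alone do not show a higher signal on the right. After normalization its median was 6.46 on the left and 6.82 on the right (log2), with 5 left arrays below the right mean. Its log2 change of 0.25 ± 0.79 SE was carried by left array 2 at a signal of 2819, and without that array it was -0.55. miR-423-5p was at -0.82 ± 1.61 SE, let-7d* at 0.05 ± 0.09, miR-146b* at -0.39 ± 0.50, miR-99b* at -0.77 ± 1.08 and miR-615-3p at 0.23 ± 0.17. The difference between arms was not tested. The signs for miR-423-5p, miR-146b*, miR-99b* and miR-330 turned round under at least 1 alternative.

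Probes that share a seed with a called miRNA behaved unevenly. miR-146a differs from miR-146b in 2 bases of the target and acts on the same targets. It was at -0.32 ± 1.04 SE (adjusted p = 0.896), with signals from 233 to 3074 on the left and from 106 to 6850 on the right. miR-100, with the seed of miR-99b, was at 0.37 ± 0.13 SE (adjusted p = 0.137) and did not overlap between the arteries, at 13.79 to 14.12 on the left and 13.03 to 13.76 on the right. miR-26b was at -1.77 ± 0.84 SE (adjusted p = 0.272), with 1 left array at a signal of 190. miR-23a, 1 base from miR-23b, was at -2.46 ± 1.60 SE (adjusted p = 0.424), with 4 left and 5 right arrays detecting it. The probe sequence of miR-669a differs from that of miR-669e in 2 bases when aligned with free ends. It was detected on 2 left and 6 right arrays, at -3.40 ± 1.38 SE (adjusted p = 0.212), opposite in sign to miR-669e.

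Of the 9 let-7 probes, 1 was lower in the left carotid by the test (let-7d; 0.983% of all probes tested) and 7 lay below 0 (50.1% of all probes), with a median log2 change of -0.77 beside -0.000835 for all probes. let-7b, the next by p, had 13.99, 14.53 and 14.66 on the left, against 14.63, 14.80 and 14.80 on the right (log2 change -0.29 ± 0.10 SE, adjusted p = 0.135). let-7c spread widely on the left, with a signal of 35 on array 3 and 12075 on array 1, and was at -1.78 ± 1.17 SE. let-7g was at -1.06 ± 0.59, let-7i at -0.77 ± 0.49, miR-98 at -1.34 ± 1.22 and let-7e at -0.71 ± 1.75. let-7a, 2 bases from let-7d, was at 0.11 ± 0.50, with right array 4 at a signal of 586 and all other arrays at 9359 or more. let-7f was at 0.70 ± 1.14, with a lowest right signal of 65. Without right array 4 these became -0.42 for let-7a and -0.48 for let-7f. The probe sequences of this family differ from those of let-7d or let-7b by 1 to 5 bases, and cross-hybridisation between them was not tested.

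The rule for named miRNAs added those next by p, until 12 were named in each direction. On the higher side, miR-324-3p had 13.17, 13.71 and 13.79 on the left, against 12.28, 12.76 and 13.35 on the right (0.79 ± 0.19 SE, adjusted p = 0.0511). solexa-308-1456 was at 0.96 ± 0.26 SE (adjusted p = 0.0789) and miR-699 at 4.24 ± 1.14 (adjusted p = 0.0797). miR-128, known from brain, was at 2.97 ± 0.82 SE (adjusted p = 0.0893), with 244, 3531 and 5837 on the left, against 144, 152.5 and 385 on the right. A second probe of miR-128 was at 0.98 ± 0.33 SE (adjusted p = 0.135), so both lay above 0 at different sizes.

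On the lower side, miR-145, which maintains the contractile state of smooth muscle, was at -0.21 ± 0.06 SE (adjusted p = 0.0992), with 13.99, 14.10 and 14.27 on the left, against 14.12, 14.35 and 14.40 on the right. miR-195, a cell-cycle repressor of the miR-15 family, had signals of 389, 1618.5 and 7586 on the left, against 3572, 7370.5 and 10659 on the right (-2.43 ± 0.73 SE, adjusted p = 0.104). miR-7a was at -2.24 ± 0.70 SE (adjusted p = 0.111), from 7.82 to 12.15 on the left and from 11.72 to 12.74 on the right. miR-692 was at -1.02 ± 0.33, miR-494 at -1.10 ± 0.37 and the probe miR-101a:9.1 at -2.86 ± 0.97 (adjusted p from 0.117 to 0.137). Before normalization the medians were close for miR-145, at 19105 on the left and 19036 on the right, and for miR-692, at 262.5 and 256. For miR-494 they were 640 on the left and 778.5 on the right, and for miR-101a:9.1 they were 196 and 1852.5. None of these miRNAs passed the threshold.

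Of the 407 probes tested, 256 were detected on all 12 arrays. Another 40 were detected on all left but not all right arrays, and 18 on all right but not all left arrays. Detection on at least 5 arrays of an artery and at most 1 of the other was seen for 4 miRNAs toward the left and 3 toward the right. Toward the left these were miR-146b, miR-669e, miR-699 and miR-697. miR-699 had signals of 6805, 3877, 116, 3486, 4385 and 998 on left arrays 1 to 6, against 83, 74, 60, 67, 2628 and 138 on right arrays 1 to 6. Left array 3 and right array 5 thus went against the rest of their groups. miR-697 was detected on 6 left and 0 right arrays but stayed dim, at 136 to 993 on the left and 73 to 157 on the right, and was at least 1.84-fold higher in the left carotid (adjusted p = 0.137; not well above background on any right array). This bound sets the left mean against the level of the dimmest detected probes, and without left array 6 it was 1.24-fold.

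Toward the right these were miR-743a, miR-877* and miR-330. For miR-330 the median signal was close in both arteries, at 148 on the left and 132 on the right before normalization. After normalization it was 6.46 on the left and 6.82 on the right (log2). miR-743a was detected on 0 left and 5 right arrays, with signals of 54, 69 and 77 on the left, against 83, 274 and 2029 on the right, and was at least 2.80-fold lower in the left carotid (adjusted p = 0.0893). Without right array 1 this bound was 1.67-fold. miR-877* had 5499, 90, 79, 78, 66 and 66 on left arrays 1 to 6, against 4711, 4186, 1954, 2345, 148 and 1652 on right arrays 1 to 6. Left array 1 and right array 5 were again exchanged with respect to their groups (-4.01 ± 1.41 SE, adjusted p = 0.137). Its opposite arm miR-877 was at 2.15 ± 1.13 SE (adjusted p = 0.307).

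**Figure D3:**
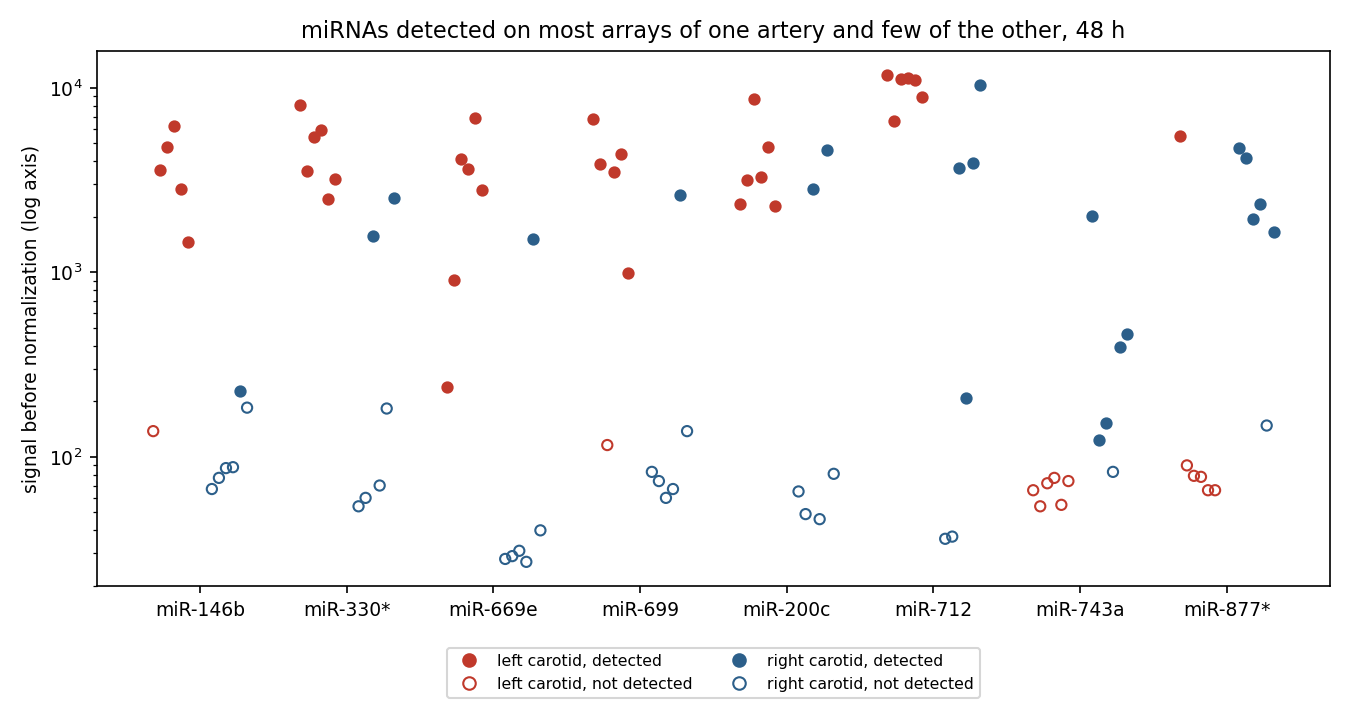
Signal before normalization (vertical log axis) of 8 miRNAs detected mostly in a single artery, or with a wide gap between arrays, on each of the 6 left (red) and 6 right (blue) arrays at 48 h; open points were not detected. Right arrays 3, 5 and 6 supply the bright right points of miR-330*, miR-669e, miR-699, miR-200c and miR-712, and left array 1 the bright left point of miR-877*.

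miR-712 and miR-200c had the same form. miR-712 is known from mouse as a product of pre-ribosomal RNA that rises under disturbed flow. Its signals were 6589, 11119.5 and 11742 on the left, against 36, 1948.5 and 10415 on the right, where arrays 1 and 2 were undetected and array 4 was at 209. Its left arrays all lay above the right mean (log2 change 4.11 ± 1.32 SE, adjusted p = 0.117). miR-200c, which maintains the epithelial state by repressing Zeb1, had 2295, 3216 and 8679 on the left, against 46, 73 and 4622 on the right, and was above background on 6 left arrays and on right arrays 3 and 5 (4.37 ± 1.23 SE, adjusted p = 0.0898). Right arrays 1, 2 and 4, which missed the most bright probes, were undetected or dim for both miRNAs, and the part of that in these values was not tested.

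The labelled tissue was checked against its markers. Both arms of the endothelial miR-126 were found on all 12 arrays. miR-126-3p had signals from 315 to 8236 on the left and from 264 to 621 on the right (log2 change 1.86 ± 0.87 SE, adjusted p = 0.2715). miR-126-5p was at -0.63 ± 0.51 SE (adjusted p = 0.533), with a median of 13.39 on the left and 14.49 on the right. All 6 left arrays of miR-126-5p lay below the right mean, and its right arrays spread from 11.47 to 14.80. Left arrays 1, 2 and 3 of miR-126-3p lay at normalized log2 signals of 12.18 to 12.93, and left arrays 4, 5 and 6 at 8.64 to 8.97, within the range of the right arrays. The summed signal of both arms ran from 5560 to 24491 on the left and from 1404 to 27882 on the right. miR-143 and miR-145 of smooth muscle were bright on all 12 arrays, summing to 24965 to 37963 on the left and 26706 to 41812 on the right. miR-143 was at -0.31 ± 0.14 SE (adjusted p = 0.2617) and miR-145 at -0.21 ± 0.06 (adjusted p = 0.0992), both with an unadjusted p under 0.05, beside -0.22 for the called miR-23b. The part of smooth muscle in the calls was not tested. The samples thus held smooth muscle miRNAs beside endothelial ones. Of these lists no member passed the threshold with all arrays. Without right array 4 miR-126-5p passed it as lower in the left carotid, and without right array 2 miR-145 did.

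miR-223, the granulocyte and monocyte miRNA, had signals of 20226, 25073.5 and 28946 on the left, against 1127, 10153.5 and 12576 on the right. The groups did not overlap, and the log2 change was 1.95 ± 0.60 SE (adjusted p = 0.107). All 3 leukocyte miRNAs tested lay above 0, and none passed the threshold. Besides miR-223 these were miR-150 at 0.51 (adjusted p = 0.857) and miR-142-3p at 0.15 (adjusted p = 0.866). Of the erythroid list, the probe miR-144 was undetected on all 12 arrays, while a second probe, miR-144:9.1, was detected on all 12 and was at 0.18 ± 0.31 SE (adjusted p = 0.8089), and miR-451 was at -1.63 ± 1.02 SE (adjusted p = 0.407); the list summed to 26456 to 46606 on the left and 23600 to 40680 on the right. Of the striated muscle list, miR-208a was undetected on all 12 arrays, and miR-1 was found on 1 left and 4 right arrays (-4.12 ± 1.53 SE, adjusted p = 0.158). Of the 5 striated muscle probes tested, 3 lay above 0 and 2 below (median 0.12). The list's summed signal was 3460 to 13765 on the left and 907 to 22817 on the right. The epithelial list, led by miR-200c and with miR-141 undetected on all arrays, summed to 6405 to 18199 on the left and 1392 to 8851 on the right. Its other tested members were miR-203 at 0.37 and miR-200b at -0.49 ± 0.32 SE. The neuronal list, led by miR-128, summed to 5729.5 to 12582.5 on the left and 700.0 to 6306 on the right. Both miR-128 probes lay above 0, and miR-124 lay below it at -0.23. The 5 mesenchymal probes summed to 39049 to 48757 on the left and 34715 to 72428 on the right. Of these, 2 lay above 0 and 3 below (median -0.0072), from miR-199a-3p:9.1 at -0.51 ± 0.27 SE to miR-199b* at 1.71. miR-122 of liver was detected on 1 left and 2 right arrays. No member of these lists passed, and their part in the calls was not tested.

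Of 17 miRNAs published as raised by laminar flow and tested here, 15 lay below 0 (50.1% of all probes) and 1, miR-23b, was lower by the test (0.983% of all probes). The list was chosen with earlier results of these data known, so these counts only describe it. Among all tested probes poorest in G and C, 44 of 116 lay above 0, and the part of base composition in the counts was not tested. miR-23b lost its call in 9 of the 12 fits without a single array, and also under 75th percentile scaling. The median log2 change was -0.32, beside -0.000835 for all probes, with the other members from -2.86 for miR-101a:9.1 to 1.86 for miR-126-3p. Under 75th percentile scaling it was -0.13, where all probes had a median of 0.32. Without right arrays 1, 2 and 4 it was -0.89. The miR-30 probes, which belong to this list, all lay below 0 (5 of 5, median -1.03, none past the threshold). miR-30d had signals of 53, 3556 and 4765 on the left, against 3531, 4750 and 10625 on the right (-1.82 ± 1.07 SE, adjusted p = 0.363). Without left array 3 the median of the family was -0.55. All 3 miR-29 probes, known for repressing collagen genes, lay below 0 (median -1.38), among them miR-29b at -2.02 ± 1.07 SE (adjusted p = 0.307).

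Of 4 tested miRNAs known from publications to rise under low or disturbed flow, 0 passed in the limma test and 1, miR-712, had an unadjusted p under 0.05. The median was 0.03. miR-34a was at -1.21 ± 0.90 SE. miR-712, miR-205 and miR-714 are in this list because of work on partially ligated mouse carotids that may rest on these arrays, so that miR-712 is no independent evidence. miR-205 was detected on 1 left and 0 right arrays and miR-714 on 2 left and 1 right arrays. The hypoxia-induced miR-210 was at 0.66 ± 0.20 SE (adjusted p = 0.107), with 13.25, 13.52 and 13.73 on the left, against 12.02, 13.03 and 13.25 on the right. Of the NF-kB linked list, 1 of 3 tested members rose, miR-146b (1.97% of all probes tested), beside miR-21 at 0.02 ± 0.06 SE (adjusted p = 0.8961) and miR-146a at -0.32 ± 1.04.

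**Figure D4:**
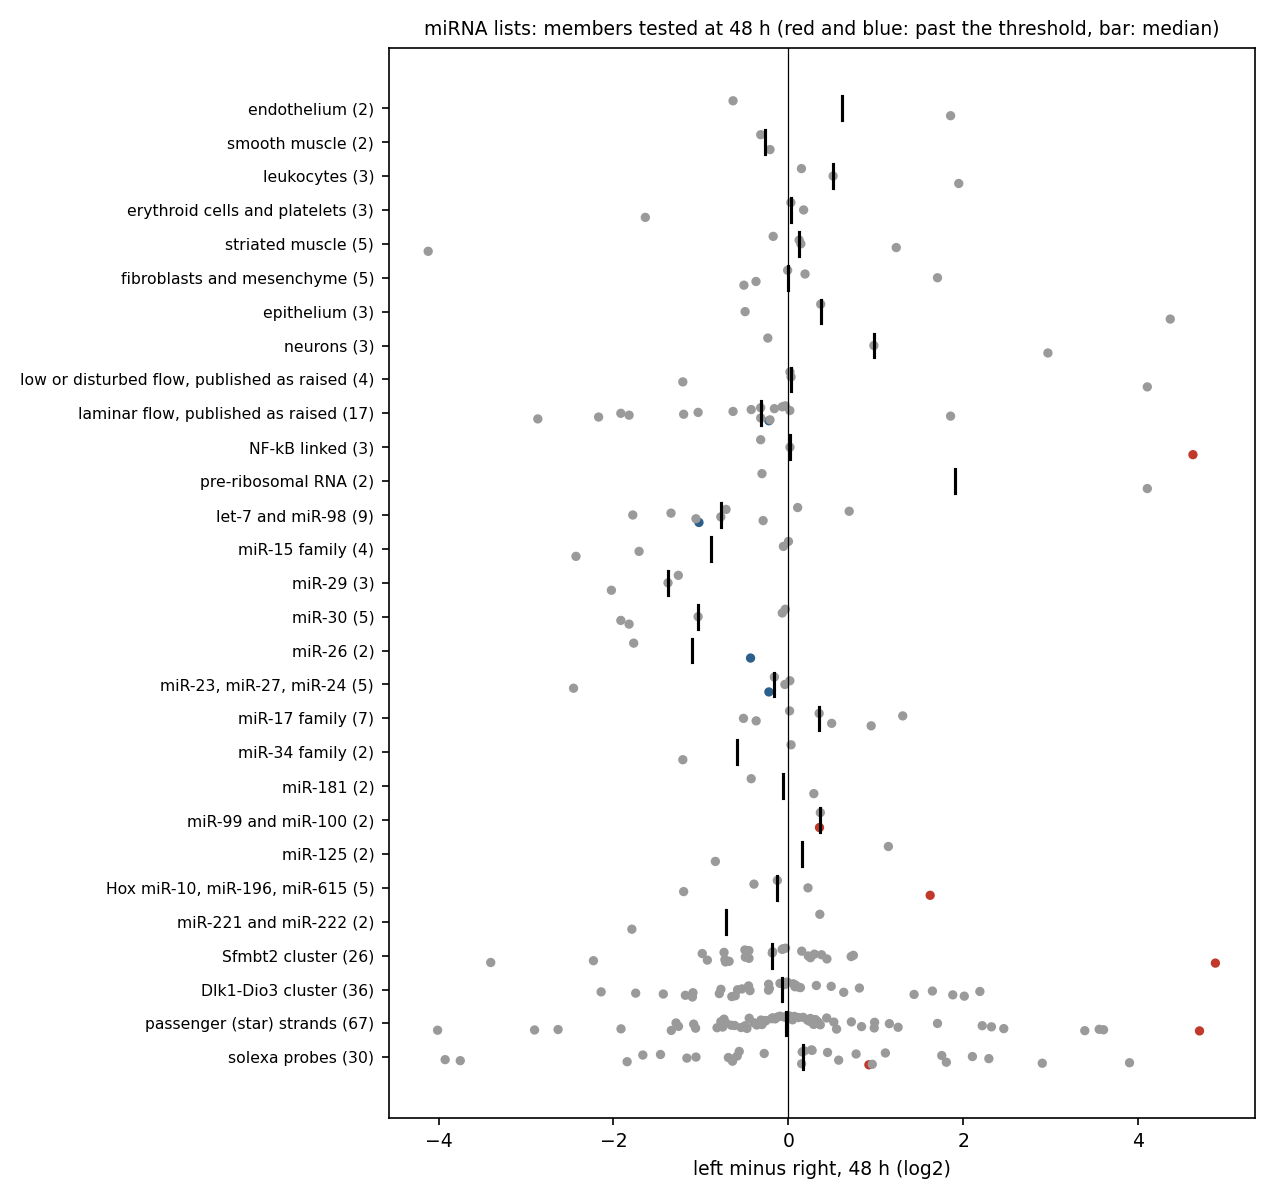
Left minus right difference at 48 h (horizontal axis, log2) of every tested member of each miRNA list, with the number tested in brackets. Red points passed the threshold as higher in the left carotid and blue points as lower, and the bar is the list's median: it lies at -0.77 for let-7 and miR-98, -1.03 for miR-30 and -1.38 for miR-29.

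Among the other seed families, the miR-17 seed had 5 of 7 members above 0 (median 0.35), led by miR-93 at 0.95 ± 0.28 SE (adjusted p = 0.104), whose groups did not overlap. This median was 0.05 without right arrays 3 and 5. The miR-15 seed had 3 of 4 below 0 (median -0.88), the wide fall of miR-195 included. miR-181a was at 0.29 ± 0.10 SE (adjusted p = 0.137), miR-125b-5p at -0.83 ± 0.41 (adjusted p = 0.299) and miR-221, which restrains endothelial growth with miR-222, at -1.79 ± 0.65 (adjusted p = 0.151). Opposite in sign to these were miR-181b at -0.42 (limma adjusted p = 0.847), miR-125a-5p at 1.14 (0.649) and miR-222 at 0.36 (0.389). Apart from the members already named as called, none of these families had a member past the threshold.

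In the imprinted Dlk1-Dio3 cluster 14 of 36 tested probes lay above 0 and 22 below (median -0.07). In the limma test 0 passed, beside 2.95% of all probes, and 1 had an unadjusted p under 0.05 (17.7% of all probes). In the Sfmbt2 cluster 9 of 26 lay above 0 and 17 below (median -0.18). miR-669e was the only member past the threshold, beside 1.97% of all probes called as higher. Both medians were above 0 under 75th percentile scaling, at 0.23 and 0.10, while the median of all probes was 0.32. Its neighbour miR-669b, 277 bases from miR-669e by the table's positions, was at 0.72 ± 0.84 SE. Star arms divided evenly, 33 above and 34 below 0 of 67, with 1 call as higher (miR-330*), beside 1.97% of all probes. Of the 30 solexa probes, 17 lay above 0 and 13 below, with 1 call as higher (1.97% of all probes). Of these 30, 11 had an unadjusted p under 0.05 (17.7% of all probes).

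The differences at 48 h ran with the base composition of the miRNA, a pattern looked for after the values were seen. Across the 407 probes, the left minus right difference had a Spearman correlation of 0.263 and a Pearson correlation of 0.245 with the percentage of G and C in the target; probes are not independent replicates. In 4 groups of probes ordered by G and C, the poorest (22.7% to 40.9%) had a median difference of -0.24, the following groups -0.09 and 0.02, and the richest (56.7% to 81.8%) 0.29. In the richest group 68 of 100 probes lay above 0, against 44 of 116 in the poorest. The miRNAs called as higher had a median of 60.0% G and C and those called as lower 44.3%, beside 47.8% for all tested. miR-615-5p, at 77.3%, was the richest of the called miRNAs, and miR-146b and miR-669e, both at 40.9%, were exceptions among the rises.

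The same relation was computed for each array, as the rank correlation between G and C content and the array's departure from the mean of both arteries. It was 0.136, 0.190, 0.0846, 0.167, 0.177 and 0.118 on left arrays 1 to 6, against -0.143, -0.131, 0.0126, -0.0334, -0.0700 and -0.0817 on right arrays 1 to 6. All left arrays lay above all right arrays, and right arrays 3 and 4 were nearest to them. The means were 0.145 ± 0.0398 on the left and -0.0744 ± 0.0587 on the right (SD, n = 6 each; difference 0.220, exact permutation test, two-sided, p = 0.0022, which is the lowest this design allows). The test used the same arrays in which the pattern was first seen, so its p is no independent evidence. At 12 h the correlation of the left minus right difference with G and C content was 0.0551 over 430 probes, and the difference between the times was not tested.

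**Figure D5:**
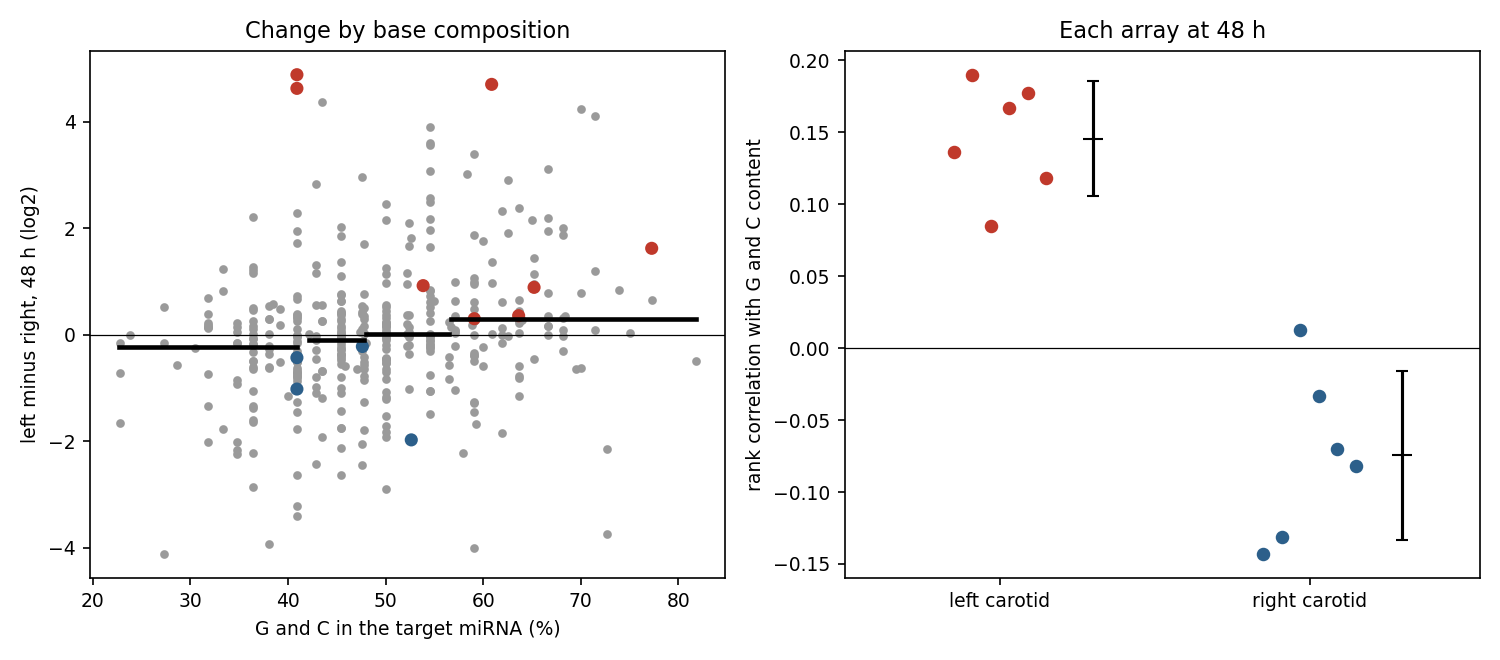
Left panel: left minus right difference at 48 h (log2) of 407 probes against the percentage of G and C in the target miRNA, with called probes coloured (red higher, blue lower) and horizontal bars at the median of each of 4 groups by G and C. Right panel: rank correlation with G and C content on each of 6 left and 6 right arrays with mean and SD, where the left arrays lie between 0.0846 and 0.190 and the right arrays between -0.143 and 0.0126.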

How the data were processed

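Carotid intimal RNA was hybridised to an Illumina mouse miRNA bead array, and the authors deposited signal intensity and a detection p-value per probe, exported with GenomeStudio 2010.2 per the submitters' processing notes. The sources used here do not say whether the background was subtracted before deposit. The authors' deposited processed intensity values matched quantile normalization within each time point (median difference 0.475% at 48 h and 0.193% at 12 h; column medians 559 to 567.83 and 1069.2 to 1079.3). The array columns name artery and number, and the table of each time was identified through these values (rank correlation at least 0.999976 with its own columns, at most 0.759 with the other time).

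Signals were background-corrected and quantile-normalized with neqc (limma 3.58.1, R 4.3.3; offset 16, log2) within each time point. A probe was tested if either artery had it detected (p under 0.05) on 3 or more arrays. Arteries were compared by lmFit and eBayes (trend on intensity; two-sided p adjusted after Benjamini and Hochberg over the 407 probes). At 12 h, arrays with a rank correlation above 0.98 were averaged as repeats of 1 sample. The change between times was 1 contrast over all samples. The fit was tested on simulated data.

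Same-numbered left and right samples at 48 h had correlations between -0.175 and 0.0242 after removal of group means, so the numbers were not used as pairs. miRNAs were named by a rule: all past the threshold, the next by p until 12 per direction, those detected on at least 5 arrays of an artery and at most 1 of the other, the opposite arms and seed relatives of these, and the leading members of lists written from memory. The members and lists were chosen with earlier results of these data known. Of 27 miRNAs looked up for their sequence, 19 matched RefSeq, 18 of them identically, and 8 sequences came from the table. The G and C relation was added after the data were seen. The files name no slide or scan date.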

Additional observations from a re-analysis of the deposited data

Results flagged for a closer look

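Single samples far from the other 5 of their artery were found in 20 of 58 groups of 6 examined (Dixon's test at the 95% level). The usual rate of 1 in 20 does not apply here. Most groups are of miRNAs chosen from the same values, by their difference or by detection mostly in a single artery. All values here are normalized log2 signals at 48 h, each followed by the nearest other sample. Among the called miRNAs, miR-146b had left array 1 at 5.72 (next 10.78) and right array 4 at 6.83 (next 6.06). miR-669e had right array 5 at 9.31 (next 5.02), miR-615-5p had left array 1 at 7.70 (next 8.80) and miR-23b had right array 4 at 14.43 (next 14.58).

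Among the others, miR-324-3p had left array 1 at 13.17 (next 13.60), and miR-195 had right array 3 at 11.86 (next 12.70). miR-699 had left array 3 at 6.05 (next 10.48) and right array 5 at 10.06 (next 6.42). miR-743a had left array 6 at 5.92 (next 5.39) and right array 1 at 11.77 (next 8.08). let-7b had left array 2 at 13.99 (next 14.51) and right array 4 at 14.63 (next 14.74). miR-877* had left array 1 at 11.96 (next 5.70) and right array 5 at 5.55 (next 10.21). miR-145 had right array 2 at 14.12 (next 14.35), miR-692 had left array 2 at 6.37 (next 7.60) and miR-101a:9.1 had left array 2 at 8.95 (next 7.22). miR-697 had left array 6 at 10.43 (next 7.52), and miR-330 had left array 2 at 11.26 (next 6.62).

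The change of miR-291b-5p at 48 h minus its change at 12 h was -4.95 (limma adjusted p = 2.47e-09), from a probe that no 48 h array detected, so that the size is not a measured value. The authors' processed values hold no value for it at 48 h, and 0 probes passed in the fit on them.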

How the results depend on the processing

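The call count at 48 h (12, of which 8 higher and 4 lower) was 12 with no background subtraction, an offset of 50, the authors' processed values, robust eBayes or detection on every array of an artery. It was 25 (15 higher, 10 lower) with no filter on dim probes, 7 (5 and 2) without the intensity trend, 21 (15 and 6) with array weights, 9 (8 and 1) with 75th percentile scaling, 6 (4 and 2) without right arrays 1, 2 and 4, which detected the fewest probes, and, chosen after seeing the data, 15 (11 and 4) without right arrays 3 and 5. Leaving out single arrays gave 1 to 15 calls, 1 to 10 higher and 0 to 6 lower. Under the replicate block 0 passed (66 at an unadjusted p under 0.05); no left sample correlated best with its own number (0 of 6). The difference in detected probes ranged from -0.733 to 14.3 over single arrays left out.

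The count of changes that differed between times (1) was 2 with 75th percentile scaling or without right arrays 3 and 5, 0 with the authors' processed values, which lack miR-291b-5p at 48 h (33 at an unadjusted p under 0.05), 6 with no filter, 3 with detection on every array or with array weights, 17 with every 12 h array as a sample and 1 with the replicate block. Leaving out single samples gave 1 to 7, the higher counts of 4, 7 and 6 without left sample 1, 2 or 3 at 12 h.

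Of the list medians (log2), those that moved under 75th percentile scaling were Dlk1-Dio3 (0.234), the miR-23 clusters (0.0746), star arms (0.327) and solexa probes (0.405). Without right arrays 1, 2 and 4 they were the Sfmbt2 cluster (0.227), laminar flow (-0.892), the Hox miRNAs (0.267) and the miR-23 clusters (-0.208). Without right arrays 3 and 5 they were the miR-17 family (0.0534), the miR-23 clusters (-0.0421) and solexa probes (-0.160). With detection on every array they were epithelium (1.94), neurons (1.97), the miR-15 family (-0.0558) and the miR-23 clusters (-0.099). Leaving out single arrays gave -0.676 to -0.22 for laminar flow, -0.232 to -0.0258 for the miR-23 clusters, -1.45 to -0.552 for miR-30 and -0.0649 to 0.235 for solexa probes.

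Signs turned round for let-7a (-0.126 with array weights, -0.541 without right arrays 1, 2 and 4, -0.425 to 0.247 over single arrays left out), let-7f (-0.434 without those 3, -0.479 to 1.03 over single arrays), let-7e (0.630 without right arrays 3 and 5) and miR-146a (0.279 without right arrays 3 and 5, -0.779 to 0.197 over single arrays). Over single arrays left out they also did for miR-146b* (-0.617 to 0.00771), miR-330 (-0.547 to 0.499), miR-423-5p (-1.57 to 0.0316) and miR-99b* (-1.25 to 0.109), and for miR-146b* under 75th percentile scaling (0.0743) and miR-330 with array weights (-0.153). The causes were not tested. The G and C difference between arteries (0.220), computed on the arrays that showed the pattern, stayed between 0.188 and 0.240, at the smallest p possible, under all alternatives run.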

Other observations

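Outside the naming rule, and chosen after their values were seen, 4 further miRNAs had left and right arrays that did not overlap at 48 h, none of them past the threshold. miR-103 had normalized log2 signals of 14.80 on the lowest and the highest left array, the level of the brightest probes, against 14.43 to 14.74 on the right (0.17 ± 0.06 SE, limma adjusted p = 0.158). solexa-1127-427 ran from 12.89 to 13.88 on the left and from 8.58 to 12.87 on the right (1.81 ± 0.63 SE, adjusted p = 0.137). miR-770-5p ran from 12.80 to 13.56 on the left and from 5.54 to 12.77 on the right (2.01 ± 1.05 SE, adjusted p = 0.307). Its probe sequence differs from that of miR-423-3p at 4 positions when aligned with free ends. miR-30c ran from 5.05 to 13.53 on the left, where 1 array did not detect it, and from 13.64 to 14.09 on the right (-1.92 ± 1.26 SE, adjusted p = 0.424).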
